A study of Homo sapiens with 12 samples.

Results

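Immune checkpoint and inhibitory ligands are cell-surface or secreted proteins through which a cell restrains the T cells, NK cells and macrophages that meet it. The set examined comprised 9 genes, CD274, PDCD1LG2, LGALS9, TNFRSF14, CD276, PVR, NECTIN2, CD47 and CEACAM1, chosen by gene symbol from the 44700 genes of the deposited gene count tables, and all 9 symbols were listed there. RNA was sequenced from 2 human melanoma cell lines, MALME-3M and SK-MEL-5, both given as WT in the labels. The 4 groups of 3 libraries each were MALME-3M with IFN-γ at 200 ng/mL for 24 h, MALME-3M not treated, SK-MEL-5 with IFN-γ at 150 ng/mL for 24 h, and SK-MEL-5 not treated. Cells were plated in triplicate wells and the cytokine was added at seeding, so p-values measure the spread between these wells, which may be technical. The lines were grown in different media with different serum contents and received different doses, so line, medium and dose cannot be told apart in any comparison between the lines.

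IFN-γ is released by activated T cells and NK cells and signals through JAK1 and JAK2 and induces the transcription factor IRF1. In melanoma, as in many tumours, this route is known for raising CD274, which encodes PD-L1, the ligand of the T cell receptor PD-1. The other members act on different receptors, some on T and NK cells and some on macrophages.

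The gene tables held 15514412 to 22921184 counts per library, and 15810 genes passed the low-count filter. Among the members 8 of 9 passed it, PDCD1LG2 only through treated MALME-3M, and LGALS9 did not pass. The 8 melanocyte lineage markers summed to 5743 to 6426 CPM (counts scaled to library sizes set by edgeR's TMM method) across all 12 libraries, and none was at 0 in any group. PTPRC, the leukocyte surface phosphatase CD45, was at 0 in all MALME-3M libraries and at 0.456 to 0.969 CPM in SK-MEL-5 libraries, and T and NK cell markers summed to between 0.0601 and 2.41 CPM. Myeloid markers summed to 167 to 184 CPM in treated and 262 to 266 CPM in untreated MALME-3M, nearly all of it CD68 and FCER1G, with TYROBP at 0 in both groups. Fibroblast markers, mostly LUM, summed to 11.7 to 14.2 CPM in treated and 17.9 to 18.6 CPM in untreated MALME-3M, and to 130.5 to 135 CPM in treated and 162 to 189 CPM in untreated SK-MEL-5. Endothelial markers, mostly KDR, summed to 24.1 to 30.1 CPM in treated and 39.7 to 42.7 CPM in untreated MALME-3M, and to 12.8 to 13.9 CPM in treated and 15.4 to 18.7 CPM in untreated SK-MEL-5. Epithelial markers, mostly CDH1, summed to 298 to 345 CPM in treated and 381 to 382 CPM in untreated MALME-3M, and to 0.440 to 0.651 CPM in treated and 1.27 to 9.53 CPM in untreated SK-MEL-5, where replicate 3 was the high one. The part of these marker transcripts in the results was not tested. Because RNA came from whole wells, fewer cells making a transcript and less transcript per cell cannot be told apart.

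Promoter sequences were searched for the motifs of the IFN-γ route, for members chosen with earlier results of these data known. The RefSeq table for GRCh38.p14 held a window of 250 bases before to 50 bases after the start for 8 of the 9 members, with 9 windows in all because CD276 had a second one. The interferon-stimulated response element, bound by IRF factors, was searched as GAAA repeated after any 2 bases, on both strands, and was found in 3.57% of all 35116 windows. The gamma-activated site was searched as TTCNNNGAA on both strands and was found in 7.66% of them. Response-element letters occurred in the windows of 3 members, CD274, CEACAM1 and LGALS9, and activated-site letters in the window of CD274 only. The windows of TNFRSF14, CD276, PVR, NECTIN2 and CD47 held neither. A match describes letters and is not a measured binding site.

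Counts of CD47 and PVR rose in both lines without a match, and CD47 was picked for contrast with these values known. The windows below are those of the 3 members with a response-element match and of CD47. They lie at chr9:5450292-5450591 on the plus strand for CD274, chr19:42528432-42528731 on the minus strand for CEACAM1, chr17:27630938-27631237 on the plus strand for LGALS9 and chr3:108090982-108091281 on the minus strand for CD47. Capitals mark the response-element letters, in either orientation. In CD274 they start at positions -208 and -202 and overlap each other, and the activated-site letters start at -125. The CEACAM1 match starts at -116 and the LGALS9 match at -9, all counted from the RefSeq start.
CD274: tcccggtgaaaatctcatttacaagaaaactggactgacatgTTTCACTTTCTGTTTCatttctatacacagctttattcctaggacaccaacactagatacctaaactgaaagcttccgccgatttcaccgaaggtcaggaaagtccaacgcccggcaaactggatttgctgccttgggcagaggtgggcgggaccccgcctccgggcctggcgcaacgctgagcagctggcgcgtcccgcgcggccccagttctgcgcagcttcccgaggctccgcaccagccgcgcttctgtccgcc
CEACAM1: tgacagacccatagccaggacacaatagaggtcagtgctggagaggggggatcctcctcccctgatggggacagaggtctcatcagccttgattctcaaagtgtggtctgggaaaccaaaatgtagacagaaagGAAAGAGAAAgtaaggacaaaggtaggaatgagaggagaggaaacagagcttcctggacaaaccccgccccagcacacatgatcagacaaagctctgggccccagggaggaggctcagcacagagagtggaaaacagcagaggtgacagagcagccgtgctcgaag
LGALS9: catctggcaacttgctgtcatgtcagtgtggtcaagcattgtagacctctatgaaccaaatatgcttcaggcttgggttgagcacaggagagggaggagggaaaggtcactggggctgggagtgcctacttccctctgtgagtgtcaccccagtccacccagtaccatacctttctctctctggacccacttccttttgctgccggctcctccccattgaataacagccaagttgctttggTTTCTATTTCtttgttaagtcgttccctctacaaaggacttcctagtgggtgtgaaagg
CD47: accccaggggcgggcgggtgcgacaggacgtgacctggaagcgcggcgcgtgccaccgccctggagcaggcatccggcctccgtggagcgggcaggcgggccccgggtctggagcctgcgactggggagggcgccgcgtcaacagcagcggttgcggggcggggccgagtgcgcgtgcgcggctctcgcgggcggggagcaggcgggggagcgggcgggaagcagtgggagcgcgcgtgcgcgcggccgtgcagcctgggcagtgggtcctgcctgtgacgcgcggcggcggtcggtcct

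Treatment with IFN-γ was compared with no treatment within each line to ask which of these ligands respond to the cytokine. PDCD1LG2 is described apart, because only the group where it was high carried it through the filter. Of the other 7 tested members, 6 rose in MALME-3M, 0 fell and CD276 was not called. Across all 15810 genes tested, 9.51% rose and 8.77% fell in that line, that is 1504 genes higher and 1386 lower. This order turned with RLE scaling (1383 higher and 1612 lower), upper-quartile scaling (1331 and 1701) and a minimum count of 50 (1400 and 1561). It also turned with DESeq2 (1382 and 1660) and without treated MALME-3M replicate 1 (1287 and 1316) or 3 (1099 and 1208). In SK-MEL-5, 4 of the 7 rose (CD274, PVR, CD47 and CEACAM1), TNFRSF14 fell and 2 were not called. The share of all genes that rose in SK-MEL-5 was 5.98%, and 7.05% fell, that is 946 genes higher and 1114 lower. That balance turned with a minimum count of 50 (1076 higher and 803 lower), with SK-MEL-5 libraries fitted alone (1062 and 809), with the transcript estimates (396 and 176), and without treated MALME-3M replicate 1 (1060 and 789) or 3 (1100 and 849), untreated SK-MEL-5 replicate 2 (709 and 655) or treated SK-MEL-5 replicate 3 (739 and 665). The median log2 fold change over the 7 members was 0.51 in MALME-3M, beside 0.00 over all genes tested, and 0.37 in SK-MEL-5, beside -0.03 over all genes. The medians and counts cover genes of unlike function and describe them only. Among the 7 members other than PDCD1LG2, the CPM of treated and untreated libraries overlapped only for CD276, in both lines. Over all genes tested, the CPM did not overlap for 33.1% in MALME-3M and 29.1% in SK-MEL-5. Calls are Benjamini-Hochberg adjusted p-values below 0.05 from edgeR's quasi-likelihood test over all genes, and every adjusted p given for a gene comes from that test.

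**Figure D1:**
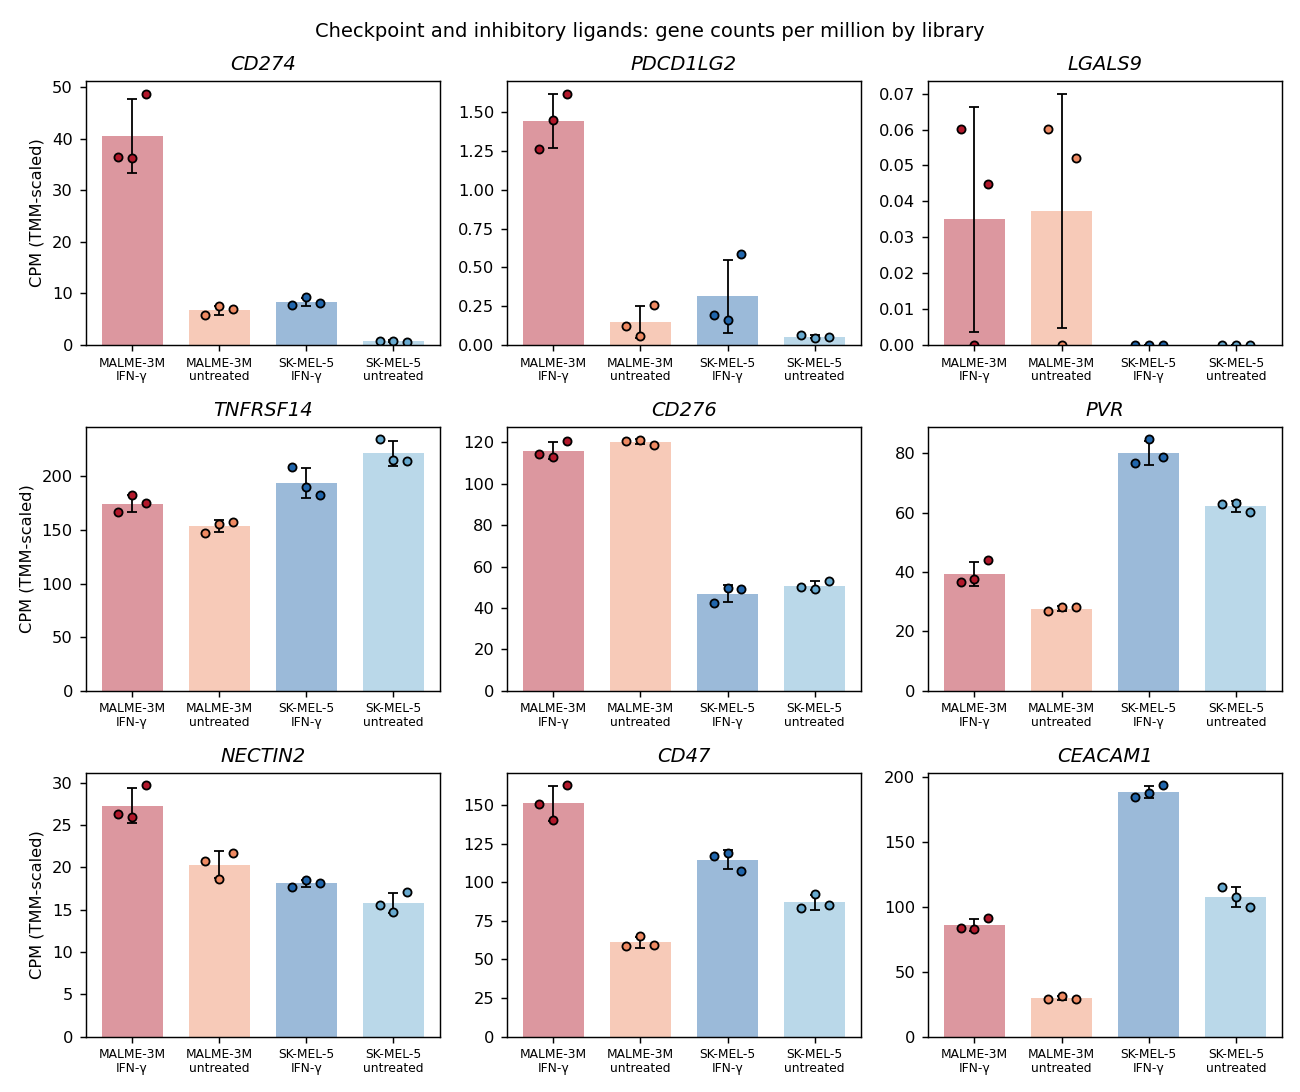
CPM (vertical axes, each from 0) of the 9 genes in the 4 groups; points are libraries, bars are means of 3 libraries and whiskers are SD. CD274 reached 36.2 to 48.8 CPM in treated MALME-3M, and LGALS9 had at most 1 count in any library.

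CD274 encodes PD-L1 and lies on chromosome 9, 5450503 to 5470566 on the plus strand (GRCh38, GENCODE 29). Treated MALME-3M had 36.5, 36.2 and 48.8 CPM, against 5.77, 7.48 and 7.03 CPM in untreated MALME-3M. Treated SK-MEL-5 had 7.73, 9.26 and 8.08 CPM, against 0.827, 0.802 and 0.507 CPM in untreated SK-MEL-5. The groups were fully separated within each line, and all treated SK-MEL-5 libraries stood above all untreated MALME-3M libraries. The log2 fold change was 2.58 ± 0.14 (SE; adjusted p = 7.94e-11) in MALME-3M and 3.55 ± 0.21 (adjusted p = 2.17e-10) in SK-MEL-5. In counts, the untreated SK-MEL-5 level rested on 41 counts over 3 libraries and the treated one on 454. The level with IFN-γ was higher in MALME-3M, while the proportional change was larger in SK-MEL-5.

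The difference between these 2 changes was itself tested as an interaction. It was -0.97 ± 0.27 log2 units (MALME-3M minus SK-MEL-5; adjusted p = 0.0488), just inside the threshold. Across all genes, 4.46% passed the test of the difference. The call was lost in 10 of the 12 fits that each left out 1 library, with adjusted p between 0.0108 and 0.176 over the 12. It held only without untreated MALME-3M replicate 1 or treated MALME-3M replicate 3. The estimate stayed between -1.17 and -0.77 in those fits, and with the transcript estimates it was -0.61 (adjusted p = 0.706).

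PDCD1LG2 encodes PD-L2, the other ligand of PD-1, and lies on the same arm at chromosome 9, 5510570 to 5571254, plus strand. Few reads fell on it in any group. Treated MALME-3M libraries had 21, 31 and 36 counts, against 2, 1 and 5 in untreated MALME-3M. Treated SK-MEL-5 libraries had 4, 3 and 9 counts, against 1 in each untreated SK-MEL-5 library. In MALME-3M the log2 fold change was 3.20 ± 0.53. Because the low-count filter admitted the gene only through treated MALME-3M, the test is given from the fit with no filter, where the log2 fold change was 3.20 ± 0.60 (adjusted p = 4.21e-06). In SK-MEL-5 the ratio of CPM was 5.68, with a 95% counting interval of 1.63 to 30.4 from 16 against 3 counts. The adjusted p missed the threshold there, at 0.0748 in the fit with no filter and 0.0547 with the filter. Over the 12 filtered fits that each left out 1 library the SK-MEL-5 log2 fold change ran from 1.67 to 2.69. The adjusted p ran from 0.0461 to 0.282, and 11 of the 12 missed the threshold. The exception was the fit without treated SK-MEL-5 replicate 2. The difference of the changes between lines was 0.81 ± 1.30 log2 units (adjusted p = 0.832), an error too wide to place the lines in order.

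LGALS9 encodes galectin-9, a secreted lectin that binds TIM-3 among other receptors, and lies at chromosome 17, 27629798 to 27649560, plus strand. The gene tables gave it 1, 0 and 1 counts in treated MALME-3M, 1, 0 and 1 in untreated MALME-3M, and 0 in all 6 SK-MEL-5 libraries. All groups were at or under the floor of 3 counts over a group, which corresponds to 0.0498 to 0.0572 CPM. No fold is given, and a change was not detectable from these gene counts. The transcript tables assigned it 29.9 estimated counts over treated and 7.05 over untreated MALME-3M, and 1 in each SK-MEL-5 group. A readthrough gene on the same strand, AC015688.4, overlaps LGALS9 in the annotation, and near-identical copies, LGALS9B and LGALS9C, exist, so its counts are uncertain. How shared reads were assigned was not tested.

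**Figure D2:**
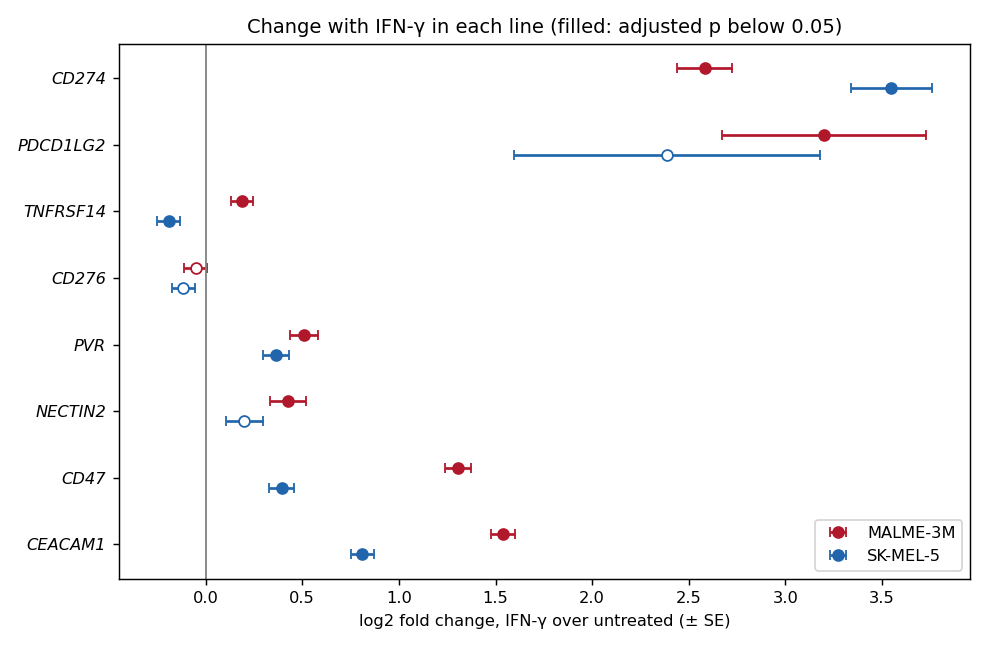
Log2 fold change of IFN-γ over untreated (horizontal axis) with SE for the 8 tested genes, MALME-3M above SK-MEL-5 in each pair, from edgeR's quasi-likelihood fit; filled points passed an adjusted p of 0.05. CD274 and PDCD1LG2 lie farthest to the right, and TNFRSF14 lies on opposite sides of 0 in the 2 lines. The filled PDCD1LG2 point comes from the filtered fit, which admitted that gene only through treated MALME-3M. Its test is the one in the text, from the fit with no filter.

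CD47 is the ligand of SIRPA on macrophages, through which it inhibits phagocytosis, and lies at chromosome 3, 108043094 to 108091862, minus strand. Treated MALME-3M had 151, 140.2 and 163 CPM, against 58.7, 65.3 and 59.6 CPM in untreated MALME-3M. Treated SK-MEL-5 had 117, 119 and 108 CPM, against 83.4, 92.7 and 85.3 CPM in untreated SK-MEL-5. Treated and untreated libraries were separated in both lines, with the wider gap in MALME-3M. CD47 rose in both lines, by a log2 fold change of 1.31 ± 0.07 (adjusted p = 2.53e-11) in MALME-3M and 0.39 ± 0.07 (adjusted p = 3.31e-04) in SK-MEL-5. The change was larger in MALME-3M by 0.91 ± 0.09 log2 units (adjusted p = 4.80e-06).

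The order of the lines in CD47 turned with treatment. Treated MALME-3M exceeded treated SK-MEL-5 by 0.40 ± 0.07 log2 units (adjusted p = 1.96e-05), whereas untreated MALME-3M was below untreated SK-MEL-5 by a log2 fold change of -0.51 ± 0.07 (adjusted p = 1.37e-06). With counts summed from the deposited transcript estimates, which cover 23.4% to 30.6% of the CD47 gene counts, 3 of these calls were lost. The log2 fold change was then 0.42 in SK-MEL-5 (adjusted p = 0.269), and the difference of the changes was 0.98 (adjusted p = 0.116). Both sizes were close to those from the gene counts. Between the treated lines the log2 fold change was 0.09 (adjusted p = 0.684).

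CEACAM1 is a homophilic adhesion molecule with an inhibitory cytoplasmic motif, found on melanoma cells and on activated lymphocytes, and lies at chromosome 19, 42507304 to 42561234, minus strand. Treated MALME-3M had 84.0, 82.6 and 91.5 CPM, against 28.7, 31.3 and 28.8 CPM in untreated MALME-3M. Treated SK-MEL-5 had 184, 188 and 194 CPM, against 115, 107 and 100.2 CPM in untreated SK-MEL-5. Even untreated SK-MEL-5 stood above treated MALME-3M in every library. CEACAM1 rose by a log2 fold change of 1.54 ± 0.06 (adjusted p = 8.60e-13) in MALME-3M and 0.81 ± 0.06 (adjusted p = 6.56e-09) in SK-MEL-5. The change was larger in MALME-3M by 0.73 ± 0.09 log2 units (adjusted p = 2.73e-05), and these calls held in every alternative tried. The antisense gene LIPE-AS1 overlaps CEACAM1 and had 152 counts summed over treated MALME-3M, 106 over untreated MALME-3M, 115 over treated SK-MEL-5 and 63 over untreated SK-MEL-5. The group sums of CEACAM1 were 1551 to 10234 counts.

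**Figure D3:**
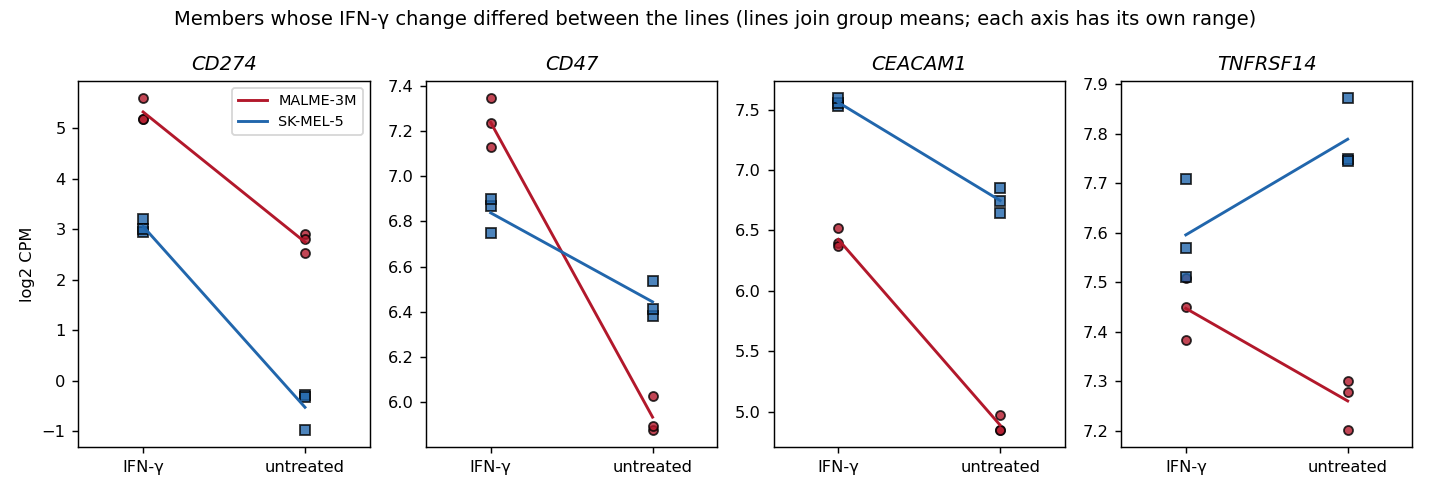
Log2 CPM (vertical axes, each with its own range) of 4 genes with IFN-γ and untreated; points are libraries, circles MALME-3M and squares SK-MEL-5, and lines join group means. The joining lines cross for CD47, slope in opposite directions for TNFRSF14, and run at different slopes without crossing for CD274 and CEACAM1.

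PVR (CD155) and NECTIN2 (CD112) are nectin-family adhesion molecules that bind the inhibitory receptors TIGIT, CD96 or PVRIG and the activating receptor CD226. PVR lies at chromosome 19, 44643798 to 44663583, and NECTIN2 at chromosome 19, 44846175 to 44889228, both on the plus strand. Antisense genes overlap both, AC243964.2 at PVR and AC011481.2 at NECTIN2, and were not analysed here. Antisense reads cannot be told apart where counting ignored strand. CEACAM19 overlaps PVR on the same strand and had 22 counts over treated and 11 over untreated SK-MEL-5, and 13 in each MALME-3M group. PVR measured 36.6, 37.5 and 44.1 CPM in treated MALME-3M, against 26.8, 28.3 and 28.1 CPM in untreated MALME-3M. It measured 76.6, 84.7 and 78.9 CPM in treated SK-MEL-5, against 63.0, 63.4 and 60.1 CPM in untreated SK-MEL-5. The treated libraries stood above the untreated ones in both lines. PVR rose by a log2 fold change of 0.51 ± 0.07 (adjusted p = 3.66e-05) in MALME-3M and 0.37 ± 0.07 (adjusted p = 8.43e-04) in SK-MEL-5, and the difference of 0.14 was not called (adjusted p = 0.513).

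NECTIN2 measured 26.3, 25.9 and 29.7 CPM in treated MALME-3M, against 20.7, 18.6 and 21.7 CPM in untreated MALME-3M. In SK-MEL-5 it measured 17.7, 18.5 and 18.2 CPM with IFN-γ, against 15.5, 14.7 and 17.1 CPM without. It rose in MALME-3M by a log2 fold change of 0.43 ± 0.09 (adjusted p = 0.00269). In SK-MEL-5 the libraries did not overlap, but the log2 fold change of 0.20 ± 0.10 was not called (adjusted p = 0.198), nor was the difference between lines of 0.23 (adjusted p = 0.425). With the transcript estimates, which cover 22.3% to 26.4% of its gene counts, the MALME-3M log2 fold change was 0.67 and was not called (adjusted p = 0.28).

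TNFRSF14 (HVEM) is a TNF receptor family member that inhibits lymphocytes through BTLA and CD160 and can be engaged by the cytokine LIGHT, and it lies at chromosome 1, 2555639 to 2565382, plus strand. Treated MALME-3M had 167, 182 and 175 CPM, against 147, 155 and 158 CPM in untreated MALME-3M. Treated SK-MEL-5 had 209, 190 and 182 CPM, against 234, 215 and 215 CPM in untreated SK-MEL-5. Both shifts were small, upward in MALME-3M and downward in SK-MEL-5, with no overlap of libraries in either line. The log2 fold change was 0.19 ± 0.06 (adjusted p = 0.0294) in MALME-3M and -0.19 ± 0.06 (adjusted p = 0.0332) in SK-MEL-5. The difference of the changes was 0.38 ± 0.08 log2 units (adjusted p = 0.00929).

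The 2 within-line calls for TNFRSF14 rested on single libraries. Adjusted p reached 0.131 in MALME-3M, where the call was lost without untreated replicate 1 or 2 or treated replicate 2 or 3. It reached 0.180 in SK-MEL-5, where the call was lost without untreated replicate 1 or 2, treated replicate 2 or 3, or treated MALME-3M replicate 1 or 3. The difference of the changes held in all 12 such fits, with adjusted p up to 0.0457. Transcript estimates, at 18.8% to 37.3% of the gene counts, gave a log2 fold change of 0.02 in MALME-3M (adjusted p = 0.974) and -0.0092 in SK-MEL-5 (adjusted p = 1), and ended the call of the difference, at 0.03 (adjusted p = 0.999). The MALME-3M call was also lost with upper-quartile scaling (adjusted p = 0.0544), and the SK-MEL-5 call with a minimum count of 50 (adjusted p = 0.0841) or with SK-MEL-5 libraries fitted alone (adjusted p = 0.0910). An antisense gene, TNFRSF14-AS1, overlaps TNFRSF14 and was not analysed here, and its reads cannot be told apart where counting ignored strand.

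CD276 (B7-H3) is a B7 family molecule with reported inhibitory effects on T cells, whose receptor is not settled, and lies at chromosome 15, 73683966 to 73714518, plus strand. Treated MALME-3M had 115, 113 and 121 CPM, against 121, 121 and 119 CPM in untreated MALME-3M. Treated SK-MEL-5 had 42.3, 49.5 and 49.0 CPM, against 50.1, 49.1 and 53.1 CPM in untreated SK-MEL-5. Treated and untreated libraries overlapped in both lines. The log2 fold change was not called in MALME-3M, at -0.05 ± 0.06 (adjusted p = 0.615), or in SK-MEL-5, at -0.11 ± 0.06 (adjusted p = 0.269).

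The lines were next compared at the same treatment status. Among the 7 tested members other than PDCD1LG2, 3 were higher and 4 lower in untreated MALME-3M than in untreated SK-MEL-5, in a comparison where 71.7% of all genes were called. With IFN-γ, 4 were higher and 3 lower in MALME-3M, where 71.8% of all genes were called. A call between the lines is thus the common case for any gene. These comparisons use the same libraries as the comparisons within lines and are not separate evidence. The median log2 fold change of the 7 members was 0.40 with IFN-γ and -0.51 untreated, beside 0.00 with IFN-γ and -0.02 untreated over all genes.

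CD274 and CD276 were higher in MALME-3M under both conditions. The log2 fold change of MALME-3M over SK-MEL-5 in CD274 was 2.28 ± 0.14 with IFN-γ (adjusted p = 2.29e-11) and 3.24 ± 0.21 untreated (adjusted p = 7.81e-11). For CD276 it was 1.31 ± 0.06 (adjusted p = 3.72e-13) with IFN-γ and 1.24 ± 0.06 (adjusted p = 7.50e-13) untreated. NECTIN2 was higher in MALME-3M too, by 0.59 ± 0.09 with IFN-γ (adjusted p = 1.29e-05) and 0.37 ± 0.10 untreated (adjusted p = 0.00199), a call lost with the transcript estimates (adjusted p = 0.565). PDCD1LG2 differed between the treated lines by 2.25 ± 0.47, and by 2.26 ± 0.54 in the fit with no low-count filter (adjusted p = 1.26e-04). Its untreated 8 against 3 counts gave a ratio of 2.94 with a 95% counting interval of 0.707 to 17.2.

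CEACAM1, PVR and TNFRSF14 were lower in MALME-3M. CEACAM1 differed by a log2 fold change of -1.13 ± 0.06 with IFN-γ (adjusted p = 2.82e-12) and -1.86 ± 0.06 untreated (adjusted p = 3.72e-15). PVR differed by -1.02 ± 0.07 with IFN-γ (adjusted p = 9.37e-11) and -1.16 ± 0.07 untreated (adjusted p = 2.11e-11). For TNFRSF14 the log2 fold change was -0.15 ± 0.06 with IFN-γ (adjusted p = 0.0260) and -0.53 ± 0.06 untreated (adjusted p = 1.23e-07). The treated call of TNFRSF14 was lost without treated SK-MEL-5 replicate 1 (adjusted p = 0.163) or treated MALME-3M replicate 1 (adjusted p = 0.119), and with no low-count filter (adjusted p = 0.0622). Its direction turned with the transcript estimates, to 0.48 with IFN-γ (adjusted p = 0.0112) and 0.45 untreated (adjusted p = 0.0154). Those estimates covered 32.85% of its gene counts in treated and 37.3% in untreated MALME-3M. The coverage was 21.15% in treated and 18.78% in untreated SK-MEL-5.

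Levels of different genes were set side by side as CPM per kilobase of exonic length. With IFN-γ, MALME-3M had TNFRSF14 highest at 28.1 ± 1.2 CPM per kb (SD, n = 3), then CD276 at 20.9, CD47 at 18.4 and CEACAM1 at 15.6. PVR at 11.2 and CD274 at 9.85 followed and overlapped in range, ahead of NECTIN2 at 7.29 and PDCD1LG2 at 0.61 CPM per kb. In untreated MALME-3M, TNFRSF14 at 24.7 and CD276 at 21.7 CPM per kb led, and the ranges of PVR and CD47 overlapped at 7.88 and 7.44, as did those of NECTIN2 and CEACAM1 at 5.42 and 5.36. CD274 had 1.65 CPM per kb there. Treated SK-MEL-5 had CEACAM1 at 34.1 and TNFRSF14 at 31.1 CPM per kb with overlapping ranges, then PVR at 22.7, CD47 at 13.9 and CD276 at 8.47. Its CD274 level, 2.03 CPM per kb, stayed below NECTIN2 at 4.83. In untreated SK-MEL-5 the order was TNFRSF14 at 35.6, CEACAM1 at 19.5, PVR at 17.7, CD47 at 10.6, CD276 at 9.16, NECTIN2 at 4.21, CD274 at 0.173 and PDCD1LG2 at 0.0224 CPM per kb. Ranked instead by the deposited TPM summed over annotated transcripts, 25 of the 36 positions differed, so the order depends on which transcripts and lengths are counted.

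**Figure D4:**
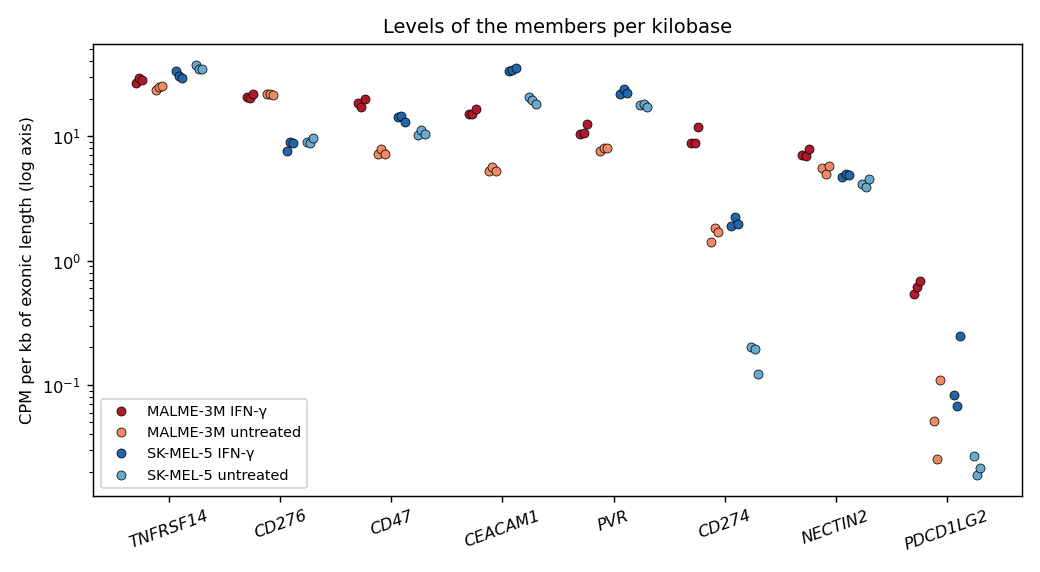
CPM per kilobase of exonic length (log axis) of 8 genes in the 12 libraries, in the order of their level in treated MALME-3M; LGALS9 is left out because most libraries are at 0. CD274 spans 0.173 to 9.85 CPM per kb over the group means, and TNFRSF14 24.7 to 35.6.

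The transcript tables gave the make-up of the members by annotated isoform, as shares of each gene's summed TPM. CD47-202, 1285 nt long with 969 nt of coding sequence, held 42.8%, 57.6% and 45.9% in treated and 51.1%, 22.7% and 66.1% in untreated MALME-3M. It held 86.4%, 86.7% and 86.3% in treated and 84.1%, 86.8% and 86.8% in untreated SK-MEL-5. The longer CD47-201, 5020 nt long with 915 nt coding, held most of the rest, with 49.2% ± 8.6 in treated MALME-3M, 49.97% ± 16.6 in untreated MALME-3M, 13.5% ± 0.2 in treated SK-MEL-5 and 13.01% ± 3.0 in untreated SK-MEL-5 (SD, n = 3 each). All 6 SK-MEL-5 libraries thus lay above all 6 MALME-3M libraries in the CD47-202 share, with a wide spread in MALME-3M. How many other isoforms separate the lines in this way is not given.

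PVR-201, annotated as a target of nonsense-mediated decay, held 25.3% ± 0.4 of PVR TPM in treated MALME-3M and 18.9% ± 11.8 in untreated MALME-3M. In SK-MEL-5 it held 46.6%, 37.4% and 44.4% with IFN-γ, against 24.2%, 29.5% and 28.9% untreated. These libraries did not overlap, but the share of all isoforms without overlap is not given. The transcript estimates covered 56.7% to 62.7% of the PVR gene counts. For CEACAM1, the long CEACAM1-201 with 1578 nt coding held 39.3% ± 2.9 in treated MALME-3M, 47.9% ± 12.3 in untreated MALME-3M, 43.4% ± 1.6 in treated SK-MEL-5 and 43.3% ± 5.0 in untreated SK-MEL-5. These ranges overlapped. CD274-202, which codes for the 870 nt form, held 59.5% ± 12.2 in treated and 36.7% ± 2.8 in untreated MALME-3M, 29.5% ± 7.9 in treated SK-MEL-5 and 9.7% ± 16.9 in untreated SK-MEL-5, where CD274 had 18.7 estimated counts in all. By estimated counts, which unlike TPM are not divided by length, CD47-202 held 19.1% ± 5.1 in treated and 19.7% ± 12.2 in untreated MALME-3M, and 60.5% ± 0.4 in treated and 61.2% ± 5.8 in untreated SK-MEL-5. On that measure CD274-202 held 90.0% ± 3.5 in treated and 80.6% ± 3.6 in untreated MALME-3M, and 71.3% ± 4.9 in treated and 24.5% ± 42.4 in untreated SK-MEL-5. Isoform shares are a description and were not tested.

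**Figure D5:**
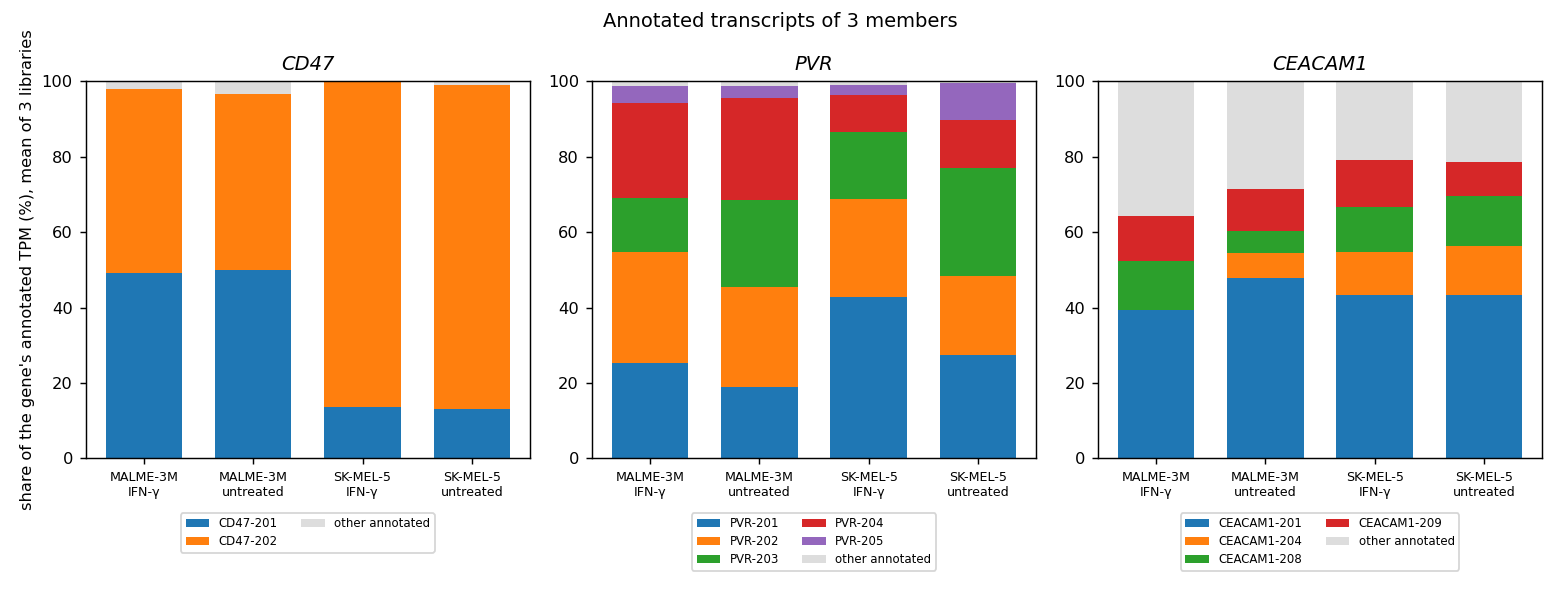
Mean share (vertical axis, percent of the gene's summed TPM over annotated transcripts, 3 libraries per bar) of the annotated transcripts of CD47, PVR and CEACAM1 in the 4 groups. CD47-202 fills 48.8% of the bar in treated and 46.6% in untreated MALME-3M, against 86.5% in treated and 85.9% in untreated SK-MEL-5; these are shares of TPM, and shares of estimated counts are lower.

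Related gene families were counted in the same fit, where 9.51% of all genes rose and 8.77% fell in MALME-3M. In SK-MEL-5 5.98% of all genes rose and 7.05% fell. The counts describe the lists, and small ones are not read as results about a family. Of 6 tested butyrophilins, which regulate T cells from the same immunoglobulin superfamily, 4 rose and 0 fell in each line. BTN3A3 reached 52.9 ± 1.6 CPM in treated MALME-3M, against 18.1 ± 0.7 CPM in untreated MALME-3M (SD, n = 3 each; log2 fold change 1.55 ± 0.07, adjusted p = 6.42e-12). It reached 46.4 ± 1.0 CPM in treated SK-MEL-5, against 13.9 ± 1.3 CPM in untreated SK-MEL-5 (1.74 ± 0.07, adjusted p = 1.45e-12). BTN3A1 rose by 1.06 ± 0.07 in MALME-3M and 1.22 ± 0.07 in SK-MEL-5. The BTN3A genes are close copies of each other, and how shared reads were split is uncertain. Of the 7 other B7 ligands 2 were tested, and ICOSLG, the ligand of ICOS, rose in MALME-3M by 2.65 ± 0.66 (46 against 6 counts, adjusted p = 0.0081). Treated MALME-3M was its highest group at 0.752 CPM and may have carried it through the low-count filter. The call held in all 20 alternatives that tested it, the fit with no filter among them. In SK-MEL-5, with 29 against 18 counts, it was not called (adjusted p = 0.44). Of 5 other nectins tested, 1 rose in MALME-3M and 0 in SK-MEL-5, and the MALME-3M count became 0 without untreated replicate 3 or treated replicate 2 or 3, and 2 without treated replicate 1. None of 4 other galectins was called in either line. None of the 11 other CEACAM genes passed the low-count filter. Of 3 TNF family costimulators, LTBR rose in MALME-3M by 0.34 ± 0.05 (adjusted p = 6.26e-05).

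Of 10 tested genes of other inhibitory signals, 5 rose and 1 fell in MALME-3M, and 4 rose and 0 fell in SK-MEL-5. The shares over all genes were 9.51% higher and 8.77% lower in MALME-3M, and 5.98% higher and 7.05% lower in SK-MEL-5. HLA-E, the ligand of the NK receptor NKG2A, reached 990 ± 29 CPM in treated MALME-3M, against 154 ± 5 CPM in untreated MALME-3M (log2 fold change 2.68 ± 0.05, adjusted p = 3.39e-18). In SK-MEL-5 it reached 855 ± 40 CPM with IFN-γ, against 107 ± 3 CPM untreated (3.00 ± 0.05, adjusted p = 6.97e-19). B2M, the class I light chain listed for its binding of the macrophage receptor LILRB1, rose by 2.32 ± 0.05 in MALME-3M and 1.92 ± 0.05 in SK-MEL-5. HLA-E shares sequence with other class I genes, so its counts carry the same uncertainty. NT5E (CD73), which makes adenosine, rose in MALME-3M by 0.36 ± 0.06 (adjusted p = 3.64e-04) and had a log2 fold change of -0.03 ± 0.08 in SK-MEL-5.

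Of the 11 genes on the route from IFN-γ to PD-L1, 7 rose and 0 fell in MALME-3M, and 7 rose and 1 fell in SK-MEL-5, where the fall was lost without untreated replicate 1 or 2 or treated replicate 3. Beside this and the next 2 lists, 9.51% of all genes rose and 8.77% fell in MALME-3M. For SK-MEL-5 these shares were 5.98% and 7.05%. IRF1 rose by 6.43 ± 0.12 in MALME-3M and 5.35 ± 0.11 in SK-MEL-5 on the log2 scale, and the feedback inhibitor SOCS3 by 1.92 ± 0.08 in MALME-3M and 1.18 ± 0.08 in SK-MEL-5. Of 18 tested regulators of PD-L1 protein or transcript, 4 rose and 2 fell in MALME-3M and 2 rose and 2 fell in SK-MEL-5. So few calls are not read as a result about the regulators. Those small counts moved when 1 library was left out, to 2 to 4 higher and 1 to 3 lower in MALME-3M (moved without untreated replicate 1 or 2 or treated replicate 2 or 3) and 1 to 3 higher and 1 to 2 lower in SK-MEL-5, and with the transcript estimates 0 rose in either line. In SK-MEL-5 the moves came without untreated replicate 2 or 3, treated replicate 1 or 3, or treated MALME-3M replicate 1 or 3. The largest called change was a rise, in TRIM21, by 1.84 ± 0.14 in MALME-3M (adjusted p = 8.14e-09) and 2.21 ± 0.13 in SK-MEL-5 (adjusted p = 1.77e-10). Both TRIM21 calls were lost with the transcript estimates. ZFP36 rose in SK-MEL-5 by 0.79 ± 0.21 (adjusted p = 0.0186) and RELA in MALME-3M by 0.26 ± 0.07 (adjusted p = 0.0131). CMTM4, which together with CMTM6 stabilises PD-L1 protein, fell by 0.46 ± 0.09 in MALME-3M (adjusted p = 0.00106) and by 0.56 ± 0.09 in SK-MEL-5 (adjusted p = 1.45e-04), and the SK-MEL-5 call was lost with the transcript estimates (adjusted p = 0.184). Of 8 tested neighbours of CD274 on 9p24, 1 rose and 2 fell in MALME-3M and 1 rose and 0 fell in SK-MEL-5, with 1 falling in MALME-3M without untreated replicate 3 or treated replicate 2 or 3. JAK2, the kinase gene on the same arm, rose by 0.76 ± 0.08 in MALME-3M and 0.44 ± 0.08 in SK-MEL-5, where the transcript estimates turned it to -0.57 (adjusted p = 0.592). ERMP1 fell by 0.44 ± 0.07 in MALME-3M (adjusted p = 1.65e-04).

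The receptors of the members were mostly near 0 in these cells, apart from SIRPA, CD226 and, in SK-MEL-5, CD96. CD226 had 6.79 ± 0.88 CPM in treated and 6.27 ± 0.64 CPM in untreated MALME-3M. In SK-MEL-5 CD226 had 12.4 ± 1.3 CPM with IFN-γ and 14.55 ± 2.4 CPM untreated. PDCD1 had 2 counts over treated MALME-3M and 0 in the other groups, TIGIT had at most 2 counts in a group and PVRIG had 0 counts in all 12 libraries. SIRPA, the receptor of CD47, was abundant in the tumour cells themselves, at 399.7 ± 8.2 CPM in treated and 428 ± 24 CPM in untreated MALME-3M, and 204 ± 10 CPM in treated and 226 ± 7 CPM in untreated SK-MEL-5 (SD, n = 3 each). THBS1, a secreted ligand of CD47, rose by 0.43 ± 0.09 in MALME-3M (adjusted p = 0.00139) and 0.53 ± 0.10 in SK-MEL-5 (adjusted p = 9.27e-04), and the MALME-3M call was lost with the transcript estimates (adjusted p = 0.0888). CD96, a receptor of PVR, had 0.687 ± 0.11 CPM in treated and 1.17 ± 0.24 CPM in untreated MALME-3M, and 24.8 ± 0.5 CPM in treated and 32.9 ± 4.4 CPM in untreated SK-MEL-5. Its log2 fold change with IFN-γ was -0.77 ± 0.24 in MALME-3M (adjusted p = 0.0413) and -0.40 ± 0.11 in SK-MEL-5 (adjusted p = 0.0188). In each line the CD96 call held in 8 of the 12 fits without 1 library, and it was lost with the transcript estimates.

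The genes whose log2 CPM followed CD274 most closely over the 12 libraries were IFIT5 (Pearson r = 0.993), TNC (0.989), FBXO6 (0.987), IFI27 (0.986) and PSME1 (0.986). Among the members NECTIN2 had r = 0.884 and PDCD1LG2 r = 0.865 with CD274, placed 213th and 283rd among the genes tested. PDCD1LG2 entered this ranking only through treated MALME-3M, the group where CD274 was also highest. CD276 had r = 0.606, CD47 0.564, CEACAM1 -0.08, PVR -0.34 and TNFRSF14 -0.60. The 12 libraries share 2 lines and 2 treatments, so these values describe the shared group pattern and are not independent relations.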

How the data were processed

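Total RNA from both lines was made into libraries with the Pico V3 kit and sequenced in paired 100-cycle reads, per the labels' protocols. Cutadapt, STAR, SAMtools, kallisto and HTSeq and the build hg38 are named in the submitters' processing notes, without versions; no source used here gives the strand setting or the annotation. The authors deposited raw read counts per gene symbol, and, in separate files, estimated counts and TPM per transcript. Rows of the count files that name no gene were kept out of library sizes: unassigned reads came to 53.3% to 85.0% of the gene counts, ambiguous ones to 4.19% to 4.54%, and non-unique alignments to 7.47 to 13.7 times the gene counts. Of 44700 genes, 15830 are loci with no gene name.

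Counts were fitted with edgeR 4.0.16 in R 4.3.3 (glmQLFit and glmQLFTest), 1 mean per group over all 12 libraries, after filterByExpr with a minimum count of 10 and TMM scaling, leaving 8 residual degrees of freedom and a common biological coefficient of variation of 0.0955. P-values were Benjamini-Hochberg adjusted over 15810 genes. SE is the log2 fold change over the root of F. The fit and the tests were checked on simulated data. Group, treatment and line come from the labels, which give no replicate numbers, so replicates are numbered in accession order. Estimated counts per transcript were summed per gene and rounded as an alternative, and TPM gave isoform shares by the GENCODE 29 annotation. Other alternatives were DESeq2 1.42.0, RLE and upper-quartile scaling, a robust fit, no filter, a minimum count of 50, only the libraries compared, no unnamed loci, and each library left out. Intervals and floors are 95% exact binomial and 3 counts, and cover counting error only. No pair of libraries in a group agreed within sampling noise. The members and gene lists were chosen with earlier results of these data known. Genes named outside the members are listed genes called in a treatment comparison, up to 4 per list by size of change, and the 5 genes most correlated with CD274; receptors of the members, markers of other cell types and genes overlapping a member are also named, for their levels. Not every gene that this rule selects is reported here.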

Additional observations from a re-analysis of the deposited data

Results flagged for a closer look

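The change with IFN-γ differed between the lines for 4 genes by the interaction test, each given as MALME-3M minus SK-MEL-5 on the log2 scale. CEACAM1 differed by 0.73 and CD47 by 0.91, both with the larger rise in MALME-3M. CD274 differed by -0.97, with the larger proportional rise in SK-MEL-5, a call that held in 2 of the 12 fits without 1 library. TNFRSF14 differed by 0.38, with a small rise in MALME-3M and a small fall in SK-MEL-5. Dose and medium differed between the lines and cannot be told apart from line.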

How the results depend on the processing

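Of 820 recomputed fold changes of the 8 tested genes, 780 kept their direction and their side of the threshold, 35 kept direction and lost the call, 1 gained it and 4 turned. Among the changed values 21 concerned TNFRSF14 and 11 came with the transcript estimates, which cover only part of each gene's counts. With those estimates 3 members were called in SK-MEL-5, 4 in MALME-3M and 1 for the difference of the changes, and the genes called numbered 572 in SK-MEL-5, 942 in MALME-3M, 137 for the difference and 7411 between the treated lines. TNFRSF14 then turned to 0.48 between the treated and 0.45 between the untreated lines. The estimates covered a larger part of its gene counts in MALME-3M than in SK-MEL-5, and the cause of the turn was not tested. Leaving out 1 library at a time gave 1364 to 2111 genes called in SK-MEL-5, against 2060 with all, the lowest without untreated SK-MEL-5 replicate 2. The CD276 difference between lines ran from -0.016 to 0.105 in the same fits and turned to -0.0079 without treated SK-MEL-5 replicate 1, and it was never called. Upper-quartile scaling changed the share of higher calls among all genes called for the difference to 49.2%, against 59.9% with TMM. That split, 422 higher and 283 lower with TMM, also turned with a minimum count of 50 (329 and 439) and without treated MALME-3M replicate 1 (275 and 362) or 3 (240 and 304). Of 75 isoform shares 51 moved when estimated counts replaced TPM, and 71 of 798 recomputed list counts moved. Few gene counts limit LGALS9 and, outside treated MALME-3M, PDCD1LG2. Whether depth or the assignment of shared reads kept the LGALS9 counts low was not tested. No paired analysis was possible because the labels give no replicate numbers.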
